A study of Mus musculus with 20 samples.

Results

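Ano3, 9030617O03Rik, 4921517L17Rik and Acap2 are 4 protein-coding genes with little known link to radiation. In the mouse aorta, each had a dose trend after proton radiation, gamma radiation or both. They were picked by name from the 21078 genes of the count table because of that trend, so their dose slopes are given as a description, with no test. All 4 passed the filter on low values, a mean of 5 counts per mouse, and so were among the 13124 genes tested. The trend did not have the same form in all of them. Ano3 and 9030617O03Rik rose steeply in both dose series, Acap2 rose by a small amount and mostly at 150 and 200 cGy, and 4921517L17Rik rose in the proton series alone.

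The data are polyA-selected RNA-seq libraries from the thoracic aorta of 20 male wildtype C57BL/6 mice, adults of 10 to 12 weeks. A series of 10 mice was exposed to high energy protons and another series of 10 to gamma rays from a caesium source, both over the whole body of conscious, restrained animals, and the tissue was taken 4 h later. Each series held 1 mouse at each of 0, 5, 10, 25, 50, 75, 100, 125, 150 and 200 cGy, and the 0 cGy mouse of each series was a restrained sham control. No dose was repeated within a series, so a value at a single dose has counting error but no replicate error.

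Ano3 encodes anoctamin 3, a membrane protein of the anoctamin (TMEM16) family of calcium-regulated channels and lipid scramblases, best known from the brain and from inherited dystonia. 9030617O03Rik is listed by RefSeq as Dglucy, D-glutamate cyclase, a mitochondrial enzyme that turns D-glutamate into 5-oxoproline. 4921517L17Rik is listed as Cnbd2, a cyclic nucleotide binding domain protein known from male germ cells. Acap2 encodes a GTPase activating protein for Arf6 that binds Rab35 and acts in endocytic recycling. None of them is a textbook gene of the DNA damage response. In that response, DNA breaks activate the transcription factor p53, which binds a pair of short half-sites and switches on genes such as Cdkn1a, a cell cycle inhibitor, and Mdm2, which brings p53 down again. Cdkn1a and Mdm2 are used here as reference genes.

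The genes lie on 3 chromosomes of the mm9 build. Ano3 spans chr2:110495358-110791080 on the minus strand in 30 exon blocks, and 4921517L17Rik lies on the plus strand of the same chromosome at chr2:156138035-156201374 in 15 exon blocks. 9030617O03Rik spans chr12:102017267-102135191 on the plus strand in 21 exon blocks, and Acap2 spans chr16:31092499-31201324 on the minus strand in 24 exon blocks.

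Each gene and 10000 bases on either side of it were searched for full p53 sites, meaning 2 perfect p53 half-sites of 10 bases with 0 to 13 bases between them. The sites are shown because the dose patterns of Ano3 and 9030617O03Rik were most like those of p53 target genes. They are written 5′ to 3′ on the strand of the gene, with the half-sites in capitals. Ano3 held 4 such sites. An intron of Ano3 at chr2:110631460-110631513 carried 3 half-sites in a row, which make 2 of these sites with the middle half-site in common. Another site lay in an intron at chr2:110532111-110532133, and the last lay less than 10000 bases before the annotated start at chr2:110800469-110800495.
Ano3 intron, 3 half-sites: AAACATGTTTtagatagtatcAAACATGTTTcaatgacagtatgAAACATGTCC
Ano3 intron, 2 half-sites: AAACATGCCCtagAAACATGTTT
Ano3 upstream, 2 half-sites: AAGCAAGTCTtactacgGAGCTAGCTC

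9030617O03Rik held 2 sites, both intronic, at chr12:102115925-102115946 and chr12:102128232-102128251. The second has no spacer.
9030617O03Rik intron, first site: AGACTAGTTTagAGGCAAGCTC
9030617O03Rik intron, second site: AGGCTAGCCCAGGCTAGCCT

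No full site was found in the windows of 4921517L17Rik and Acap2. A site was present in the windows of 19.4% of the 12578 tested protein-coding genes, at 3.5 sites per megabase, and long genes hold more. Among genes with windows within 25% of the length of the Ano3 window, 54.5% had a site and 2.47% had 4 or more. Among genes with windows like that of 9030617O03Rik, 32.9% had a site and 7.6% had 2 or more. The corresponding share was 22.5% for windows like that of 4921517L17Rik and 33.0% for windows like that of Acap2. A match is a description of the letters, not evidence that p53 binds there.

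The 300 bases around the annotated start, 250 before it and 50 after it, contrasted between the genes. The promoters of 9030617O03Rik and Acap2 are printed as examples of a window poor in CG dinucleotides and one rich in them. The window of 9030617O03Rik, chr12:102017017-102017316, had 53% GC and 3 CG dinucleotides, and its capitals mark CCAAT and its reverse complement. The window of Acap2, chr16:31201275-31201574, had 67.7% GC and 28 CG dinucleotides, and its capitals mark GGGCGG.
9030617O03Rik promoter: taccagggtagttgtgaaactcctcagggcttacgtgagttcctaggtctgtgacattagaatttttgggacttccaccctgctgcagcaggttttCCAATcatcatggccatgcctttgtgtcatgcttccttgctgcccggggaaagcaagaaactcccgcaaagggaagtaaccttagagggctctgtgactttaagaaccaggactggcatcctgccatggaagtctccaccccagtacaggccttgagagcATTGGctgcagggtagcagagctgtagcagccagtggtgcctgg
Acap2 promoter: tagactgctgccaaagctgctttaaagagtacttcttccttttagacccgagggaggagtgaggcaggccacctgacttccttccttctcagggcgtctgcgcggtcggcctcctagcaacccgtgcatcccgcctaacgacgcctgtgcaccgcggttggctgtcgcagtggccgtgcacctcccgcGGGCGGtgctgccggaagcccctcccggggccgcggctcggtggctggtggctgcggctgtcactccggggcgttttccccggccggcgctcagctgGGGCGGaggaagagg

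The median over 22375 promoters of the same length was 55% GC and 11 CG dinucleotides. 4921517L17Rik had 76.7% GC with 41 CG dinucleotides, and Ano3 had 48.3% GC with none. The window of 4921517L17Rik lies within Scand1, a gene on the opposite strand, and the window of Ano3 begins with a long repeat of G and A. Whether these annotated starts are used in the aorta was not tested. CCAAT was found in the windows of Ano3 and 9030617O03Rik and in 37.9% of all promoters, on either strand. GGGCGG was found in the windows of 4921517L17Rik and Acap2 and in 43.4% of all promoters. None of the 4 windows held TATAAA, which occurs in 13.4% of all promoters. The same was true of the E-box CACGTG (7.78% of all promoters) and of the AP-1 motif TGACTCA (4.42%). The p53 half-site, present in 7.46% of all promoters, was in none of the 4 windows either.

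The libraries had been brought to one depth by the authors, with 6051657 to 6058006 counts per mouse, so counts of a gene need no scaling for depth. Equal depth does not remove differences in the make-up of the libraries, such as those given next. Smooth muscle markers summed to 165116 to 332585 counts in every mouse and are those of the main cell type of the aortic wall, and endothelial markers to 2232 to 7793. The proton mouse at 75 cGy stood apart in fat markers, with white fat markers at 39219 counts against at most 15046 in any other mouse and brown fat markers at 14878 against at most 5824. In the 4 libraries at 150 and 200 cGy, the correlation across genes between GC content and the deviation of the log2 count from its mean over the mice was −0.401 to −0.349, against −0.018 to 0.284 in the other 16, so AT-rich transcripts took a larger share of these libraries. In bulk tissue, fewer cells of a type and less RNA per cell cannot be told apart.

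Ano3 was the lowest of the 4 genes in level and the steepest in slope. Its counts in the proton series were 1, 2, 3, 2, 6, 10, 7, 18, 34 and 23 from 0 to 200 cGy. In the gamma series they were 2, 2, 2, 4, 4, 14, 6, 12, 23 and 26. All 6 mice at 0 to 10 cGy had 1 to 3 counts and all 4 mice at 150 and 200 cGy had 23 to 34. The lowest and highest doses did not overlap in either series, which the choice of the gene by its dose trend favours. The share of all tested genes with such a gap was not counted. The mice at 25 and 50 cGy had 2 to 6 counts and those at 75 to 125 cGy had 6 to 18.

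The fitted log2 change of Ano3 from 0 to 200 cGy was 4.25 ± 0.60 (SE, n = 10 mice) with protons and 3.65 ± 0.58 (SE, n = 10 mice) with gamma rays. These are the slopes per 100 cGy of 2.13 and 1.83 carried over the whole range, from the fit over all genes. Only 1 tested gene had a higher proton slope and 3 had a higher gamma slope. Depth limits this size: 7 of the 20 mice had 3 counts or fewer, and the ratio of the 200 cGy mouse to the sham mouse was 23.0 with an exact 95% counting interval of 3.74 to 947 in the proton series and 13 with an interval of 3.26 to 113 in the gamma series. Over 0 to 125 cGy alone, without the 4 libraries of different GC content, the change scaled to the same range was 4.98 with protons and 3.97 with gamma rays.

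9030617O03Rik rose in both series from a level at which single counts matter less. Its proton counts were 54, 50, 66, 106, 99, 221, 136, 194, 251 and 255 from 0 to 200 cGy. Its gamma counts were 52, 42, 41, 85, 113, 154, 191, 174, 208 and 209. The 6 mice at 0 to 10 cGy had 41 to 66 counts, below all 14 mice at higher doses, and the 4 mice at 25 and 50 cGy, at 85 to 113, lay below all 10 mice at 75 cGy and above. The ranges at 75 to 125 cGy, 136 to 221, and at 150 and 200 cGy, 208 to 255, overlapped. Gaps between dose ranges are favoured by the choice of the gene, and their share over all tested genes was not counted.

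The fitted change of 9030617O03Rik was 2.33 ± 0.40 (SE, n = 10 mice) on the log2 scale with protons, a 5.02-fold rise, and 2.38 ± 0.41 (SE, n = 10 mice) with gamma rays, a 5.19-fold rise. The 200 cGy mouse had 4.72 times the count of its sham in the proton series, with a counting interval of 3.51 to 6.46, and 4.02 times in the gamma series, with an interval of 2.95 to 5.56. Its proton count at 75 cGy, 221, was the highest below 150 cGy and came from the mouse that stood apart in fat markers. With the brown fat marker score as a covariate the change was 2.53 with protons and 2.17 with gamma rays. Over 0 to 125 cGy it was 2.99 and 3.49, the latter SE 0.59.

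**Figure D1:**
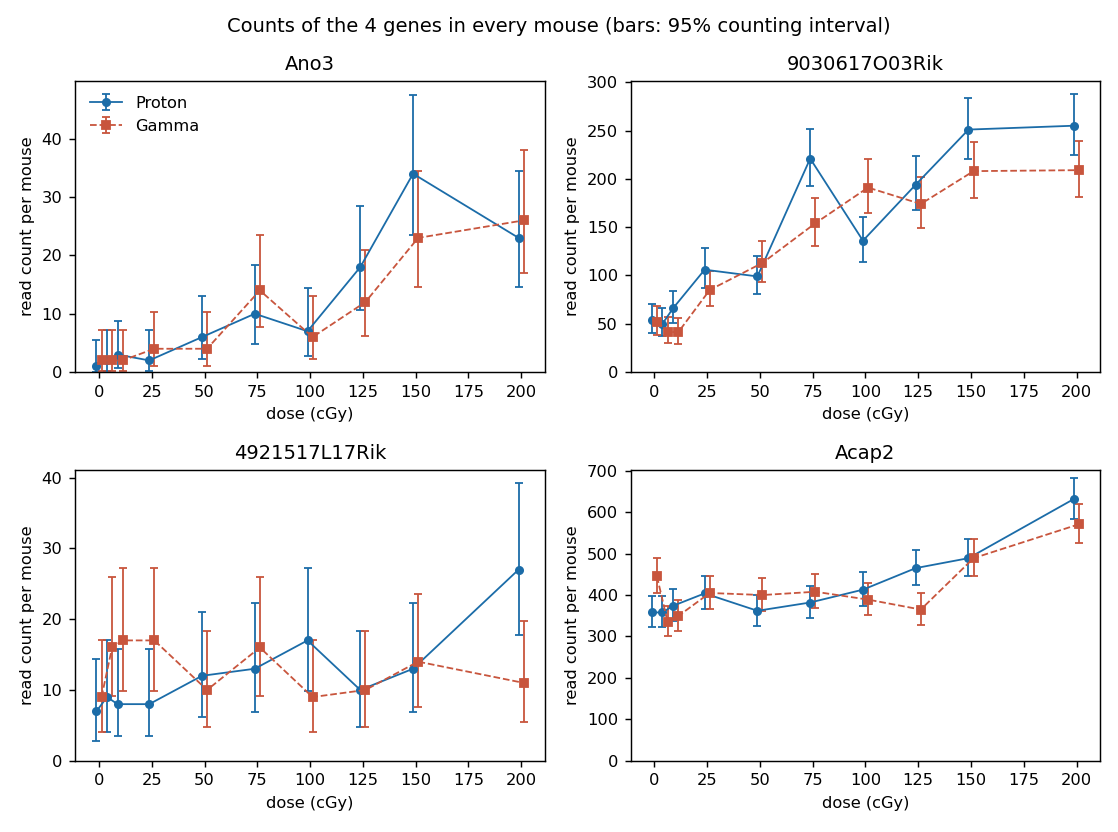
Read counts of the 4 genes (vertical axes) against dose in cGy (horizontal axes), 1 point per mouse, circles for proton and squares for gamma, with exact 95% counting intervals as bars. Ano3 and 9030617O03Rik climb in both series, Acap2 lifts at 150 and 200 cGy, and 4921517L17Rik climbs in the proton series to 27 counts while its gamma counts stay between 9 and 17.

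4921517L17Rik differed from the others in that the 2 series took different courses. Its proton counts were 7, 9, 8, 8, 12, 13, 17, 10, 13 and 27 from 0 to 200 cGy. Its gamma counts were 9, 16, 17, 17, 10, 16, 9, 10, 14 and 11. In the proton series the 9 irradiated mice all exceeded their sham, though by 1 or 2 counts at 5 to 25 cGy, and the 200 cGy mouse was well above the rest. In the gamma series 8 of the 9 irradiated mice exceeded their sham and 1 equalled it, but the highest counts were at 10 and 25 cGy, and the rank correlation with dose was −0.178 against 0.848 in the proton series. Against both shams, 6 irradiated proton mice and 8 irradiated gamma mice were higher.

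The fitted change of 4921517L17Rik was 1.53 ± 0.37 (SE, n = 10 mice) with protons and −0.40 ± 0.39 (SE, n = 10 mice) with gamma rays. The ratio of the 200 cGy mouse to its sham was 3.86 with an interval of 1.64 to 10.5 in the proton series and 1.22 with an interval of 0.460 to 3.34 in the gamma series. The proton change was 1.09 without the proton mouse at 200 cGy. The slope difference between the series was 0.97 per 100 cGy, with a 95% interval of 0.40 to 1.54. Since the gene was picked for a trend in one series, this difference is a description, and across all tested genes edgeR called 0.0% for a slope difference at an adjusted p of 0.1, while 254 genes had an unadjusted p below 0.05. Scand1, a gene on the opposite strand that overlaps the start of 4921517L17Rik, had 13 to 89 counts, and the table used is the sense-strand one.

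Acap2 had the highest level of the 4 genes and a small rise. Its proton counts were 358, 358, 374, 404, 362, 382, 413, 465, 489 and 632 from 0 to 200 cGy. Its gamma counts were 445, 336, 349, 405, 400, 408, 389, 365, 489 and 571. In the proton series 8 of the 9 irradiated mice exceeded the sham and 1 had the same count, whereas in the gamma series only the mice at 150 and 200 cGy did. This contrast rests on the single shams, 358 with protons and 445 with gamma rays. Against both shams, 3 irradiated proton mice and 2 irradiated gamma mice were higher. The 4 mice at 150 and 200 cGy had 489 to 632 counts, above all 16 others at 336 to 465. Here too the choice of the gene favours such a gap, and its share over all tested genes was not counted.

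The fitted change of Acap2 was 0.73 ± 0.14 (SE, n = 10 mice) on the log2 scale with protons and 0.45 ± 0.14 (SE, n = 10 mice) with gamma rays. Counted from the highest slope among all tested genes, Acap2 ranked 453 with protons and 1847 with gamma rays, so the size of its trend was not unusual. The ratio of the 200 cGy mouse to its sham was 1.77, interval 1.55 to 2.02, in the proton series and 1.28, interval 1.13 to 1.46, in the gamma series. The rise depended on the top doses. Over 0 to 125 cGy the change was 0.43 with protons and −0.10 ± 0.18 (SE) with gamma rays, a turned direction, and without the gamma mouse at 200 cGy the gamma change was 0.20. Acap2 transcripts have 43.8% GC against a median of 50.4% over tested genes, and once every library was corrected for the GC content and length of its genes the change was 0.47 with protons and 0.15 ± 0.11 (SE) with gamma rays. Ano3, with 40.2% GC, kept a change of 3.89 and 3.26 under the same correction, and 9030617O03Rik, with 51.2% GC, one of 2.33 and 2.38.

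Compared per kilobase of exon, the mean levels over the 20 mice were 1.38 counts for Ano3, 3.26 for 4921517L17Rik, 30.5 for 9030617O03Rik and 64.4 for Acap2. These stood at percentiles 1.37, 6.36, 42.0 and 63.7 of the tested genes. Mdm2 was at 90.4 counts per kilobase and Cdkn1a at 644. In the proton series the smallest fold rise therefore belonged to the gene with the highest level and the largest to the one with the lowest.

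The reference genes had fitted proton and gamma changes of 2.79 and 3.19 for Cdkn1a, and slopes per 100 cGy of 0.40 and 0.42 for Mdm2. On that scale the 9030617O03Rik slopes were 1.16 and 1.19, and the Acap2 slopes were 0.37 and 0.22.

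**Figure D2:**
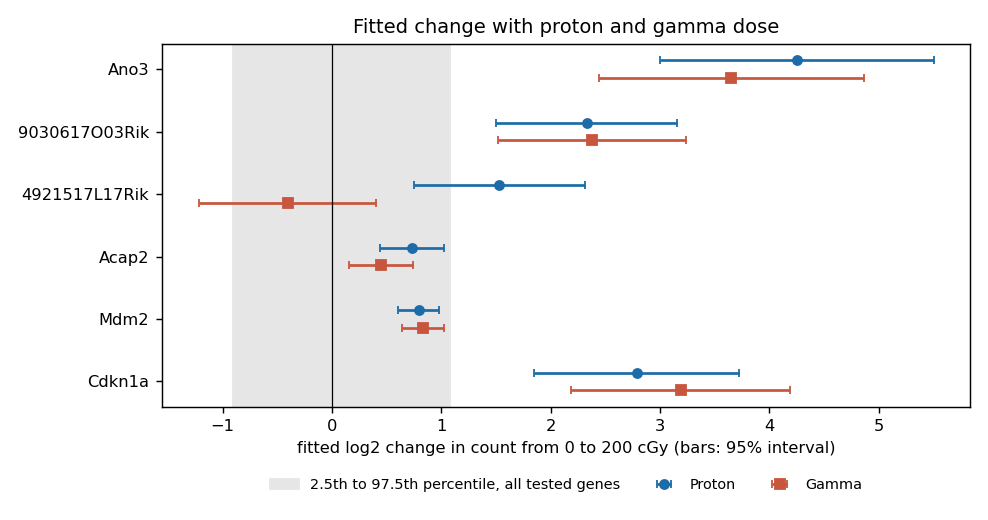
Fitted log2 change in count from 0 to 200 cGy (horizontal axis) for the 4 genes, Mdm2 and Cdkn1a, with circles for proton, squares for gamma and 95% intervals as bars. The grey band joins the middle 95% of all tested genes in each series, from −0.91 (proton) to 1.08 (gamma). It is therefore wider than the middle 95% of either series alone. The upper limit of that middle 95% was 0.86 with protons and 1.08 with gamma rays. The changes of Acap2, 0.73 and 0.45, lay below these limits, as did those of Mdm2. Ano3 lies farthest right at 4.25 and 3.65, and 4921517L17Rik is the only gene with its points on either side of 0.

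The dose at which the rise came also differed. With the log2 mean of the 0 to 10 cGy mice set at 0% and that of the 150 and 200 cGy mice at 100%, 9030617O03Rik had reached 45.3% at 25 and 50 cGy and 82.5% at 75 to 125 cGy. Cdkn1a was close to it, at 45.9% and 79.5%. Ano3 had reached 21.9% and 61.2%, and Mdm2 34.1% and 56.8%. Acap2 had reached 16.3% and 22.9%, so most of its difference lay between the 75 to 125 cGy range and the 150 and 200 cGy range, and the libraries of that last range are those of different GC content. For 4921517L17Rik, with both series pooled, the shares were 22.0% and 40.0% of a small difference between overlapping ranges, 7 to 17 and 11 to 27 counts.

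**Figure D3:**
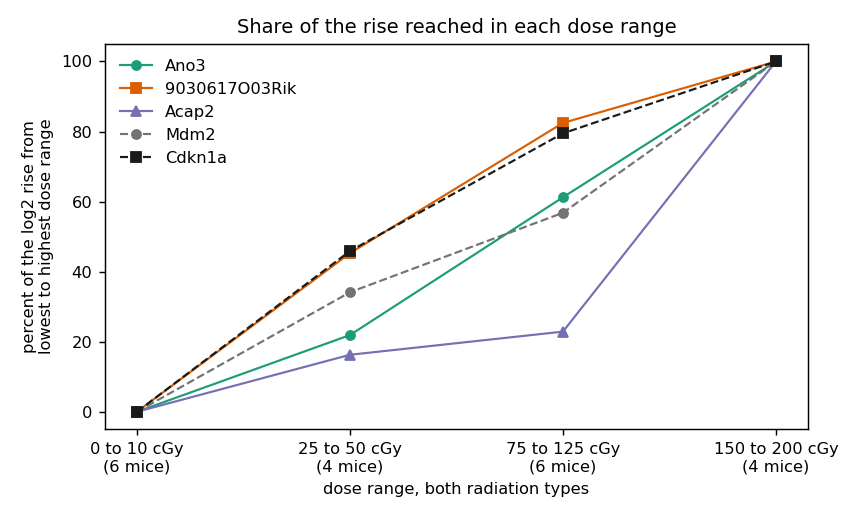
Share of the log2 rise from the lowest to the highest dose range, in percent (vertical axis), at 4 dose ranges with both radiation types pooled (horizontal axis), with solid lines for 3 of the genes and dashed lines for Mdm2 and Cdkn1a. The 9030617O03Rik line runs beside that of Cdkn1a, and the Acap2 line is at 16.3% and 22.9% in the middle ranges before it reaches 100% in the last.

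The question of whether protons and gamma rays gave different levels on average over the 10 matched doses was not used to choose the genes, and was tested. Differences of opposite sign at single doses cancel in this mean, so the test cannot show equal levels at each dose. For 4921517L17Rik, the proton mouse had 8 counts against 17 at 10 cGy and 27 against 11 at 200 cGy. Ano3 had a mean of 10.6 counts in the proton mice and 9.5 in the gamma mice. The level difference, proton minus gamma at matched dose, was 0.09 on the log2 scale with a 95% interval of −0.37 to 0.55 and an edgeR adjusted p of 0.927. 9030617O03Rik had means of 143.2 and 126.9 and a difference of 0.16, interval −0.05 to 0.38, edgeR adjusted p = 0.720. 4921517L17Rik had means of 12.4 and 12.9 and a difference of −0.12, interval −0.67 to 0.43, edgeR adjusted p = 0.914. Acap2 had means of 423.7 and 415.7 and a difference of 0.01, interval −0.12 to 0.13, edgeR adjusted p = 0.982.

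None of the 4 differences passed the threshold, and neither did any of the 13124 genes, which is 0.0% called by edgeR, while 1032 genes had an unadjusted p below 0.05 and DESeq2 called 70. The intervals leave room for a mean difference over the doses of up to 0.55 in Ano3 and 0.67 in size in 4921517L17Rik on the log2 scale. For Acap2 they leave room for a mean difference of no more than 0.13, which does not bound the difference at a single dose. An exact two-sided permutation test over all 1024 ways of exchanging the radiation types within dose pairs gave mean log2 differences of 0.02 ± 0.49 (SD over 10 pairs) for Ano3, exact p = 0.887, 0.18 ± 0.33 for 9030617O03Rik, exact p = 0.115, −0.12 ± 0.74 for 4921517L17Rik, exact p = 0.613, and 0.02 ± 0.18 for Acap2, exact p = 0.707. Adjusted over all genes these were 0.977, 0.689, 0.90 and 0.928 by the exact test, which called 0.0% of genes, while 1125 had an unadjusted p below 0.05. The smallest p it can give is 0.00195. Without the pair at 100 cGy, the mean difference of 9030617O03Rik was 0.26 with an unadjusted exact p of 0.0156, and its edgeR adjusted p was 0.311, the lowest over its alternatives, which ran up to 0.951 with DESeq2.

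At single doses, the exact counting interval of the ratio of the proton to the gamma mouse included 1 in all 10 pairs for Ano3, whose ratios ran from 0.5 to 1.5. It included 1 in 9 of 10 pairs for 4921517L17Rik, the exception being 200 cGy with 27 against 11 counts. It did so in 8 of 10 pairs for Acap2, the exceptions being the shams, 358 against 445, and 125 cGy, 465 against 365. For 9030617O03Rik it included 1 in 5 of 10 pairs, and the proton mouse was higher in 8 of 10. The exceptions were at 10, 75, 150 and 200 cGy, where the proton mouse was higher, and at 100 cGy, where the gamma mouse was. These intervals hold no difference between animals, since each is a pair of single mice.

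**Figure D4:**
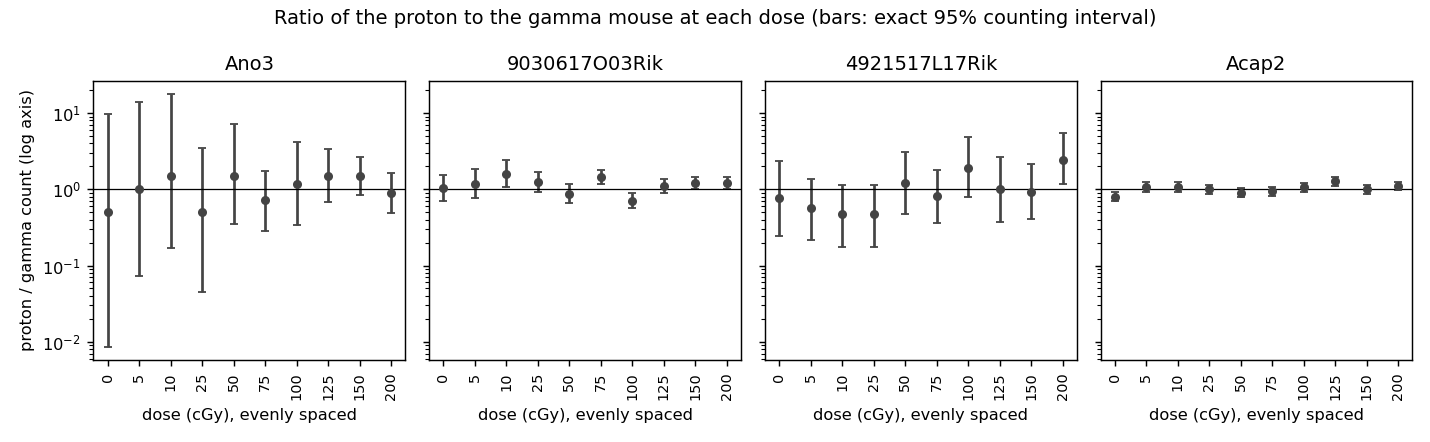
Ratio of the proton to the gamma count (vertical axis, log scale) for each pair of mice at one dose in cGy (horizontal axis, evenly spaced), with exact 95% counting intervals as bars and a line at 1. The bars are widest for Ano3, whose sham pair had 1 and 2 counts, and narrowest for Acap2.

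The genes whose log2 counts followed each of the 4 most closely over the 20 mice are a description, because all of them share the dose order. For Ano3 they were Ccng1 (Pearson r = 0.932), Aen (0.910), Mdm2 (0.903), Cdkn1a (0.90) and 9030617O03Rik (0.899). Ccng1, a cyclin G, and Aen, a nuclease of apoptosis, are known p53 targets. For 9030617O03Rik they were Ccng1 (r = 0.958), Slc19a2 (0.958), a thiamine transporter, Commd3 (0.954), Cdkn1a (0.954) and Ei24 (0.95). Those nearest to Acap2 were another set, Fbxo32 (r = 0.885), Itch (0.882), Zbtb20 (0.876), Tulp4 (0.876) and Luzp1 (0.874), of which Fbxo32 and Itch act in ubiquitin ligation. For 4921517L17Rik the values were lower, with Tm2d3 (r = 0.780), Ifitm1 (0.696), Cxxc4 (0.673), Rps7 (0.666) and Hus1 (0.660), a subunit of a DNA damage checkpoint clamp.

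Among the 4 genes, the counts of Ano3 and 9030617O03Rik were the most alike, with r = 0.899 over the 20 mice. With the straight dose line of each series taken off, the correlation between them was 0.437, and the other 5 pairs of genes lay between −0.234 and 0.062. A straight line leaves any bend of the dose course in place. In both series, both genes lay above their lines at 75 cGy and below them at 200 cGy. The value of 0.437 therefore does not separate likeness between mice from a shared bend with dose.

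The families and partners of the genes were looked at by the same fit, in which edgeR at an adjusted p of 0.1 called 1.6% of all tested genes upward with proton dose and 5.44% with gamma dose. Over 0 to 125 cGy, with 16 mice, only 13 of all tested genes were called upward with protons and 29 with gamma rays. Of the 5 other tested anoctamins, none was called in either direction with proton or gamma dose, and the highest slopes, those of Ano6, a lipid scramblase, were 0.21 and 0.16 per 100 cGy. Downward calls made up 0.16% of all tested genes with proton dose and 2.21% with gamma dose, and these counts moved widely with the settings. Of 21 other Arf GTPase activating proteins, 1 was called upward with protons and 1 upward and 1 downward with gamma rays. Arap2, which acts on Arf6 as Acap2 does, rose in both series with slopes of 0.38 and 0.42, and Git1, a scaffold at focal adhesions, fell with gamma dose at −0.27. None of 16 genes around Arf6 and Rab35 was called, with median slopes of −0.08 and −0.04, and Rab35 itself had −0.13 and −0.13. None of 14 enzymes of glutamate and D-amino acid metabolism was called, with medians of −0.03 and 0.06, and Glul, glutamine synthetase, had −0.04 and 0.33. With so few genes in these lists, such counts lie near the shares over all tested genes.

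Of 30 tested p53 target genes, 17 were called upward with proton dose and 17 with gamma dose, none downward, with median slopes of 0.47 and 0.45 against 0.00 and 0.01 over all tested genes. The list holds genes known to respond to radiation, among them Cdkn1a, Mdm2, Aen and Ccng1, which the paper reported as dose-responsive in these same mice. Its make-up therefore favours upward calls, and the counts are a description. The highest slopes in it were those of Eda2r, a death domain receptor, at 1.57 and 1.73, and Gtse1, at 1.41 and 1.71. Plk3 had slopes of −0.15 and 0.01 and Fas of 0.00 and 0.02, neither called. The slopes of Ano3, 2.13 and 1.83, lay above both Eda2r and Gtse1, and those of 9030617O03Rik lay below them.

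The nearest 2 tested genes on each side of each of the 4 genes gave 16 neighbours. None was called with proton dose, against 1.6% of all tested genes upward, which is near the background for so few genes. With gamma dose, against 5.44% upward and 2.21% downward, Rps6ka5 beside 9030617O03Rik rose with a slope of 0.39 and Phf20 beside 4921517L17Rik with 0.25, and Epb4.1l1 beside 4921517L17Rik fell at −0.21. The neighbours of Ano3, the nearest of which is Fibin, had slopes between −0.14 and 0.15 with protons and between −0.26 and 0.29 with gamma rays. The dose slopes of Ano3 and 9030617O03Rik therefore stood above those of the genes around them, a gap that the choice of the genes favours.

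**Figure D5:**
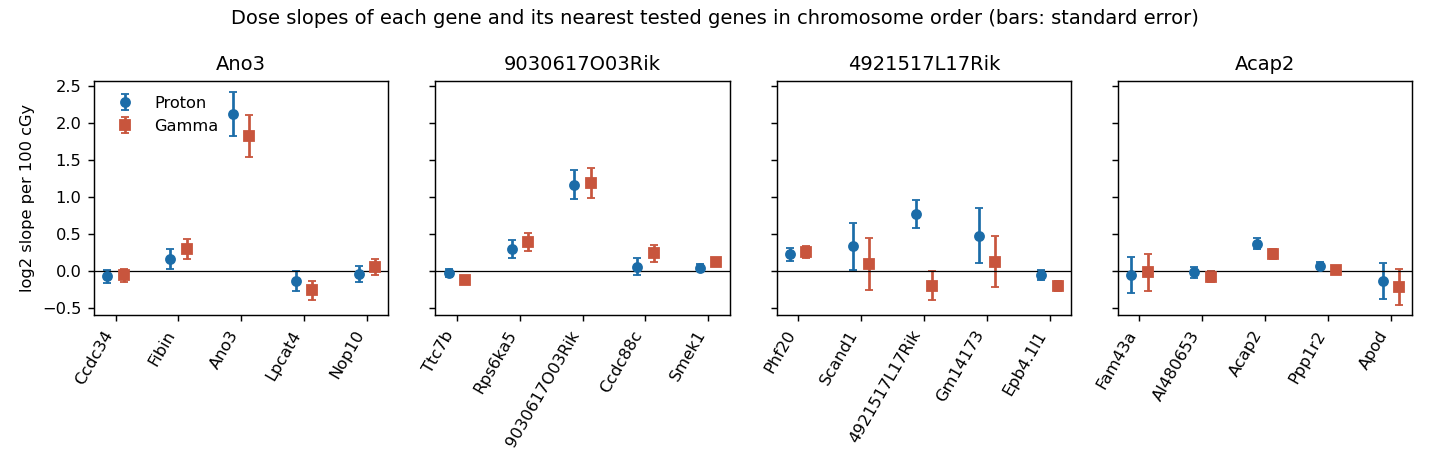
Log2 slope per 100 cGy (vertical axis) of each gene and its nearest tested genes in chromosome order (horizontal axis), with circles for proton, squares for gamma and standard errors as bars. Ano3 at 2.13 and 1.83 and 9030617O03Rik at 1.16 and 1.19 rise above their neighbours. The slopes of all 16 neighbours of the 4 genes run from −0.26 to 0.48.

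Markers of other cell types were set beside these values. No tested gene of the 9 marker lists was called with dose in either series. Over all tested genes, 1.6% were called upward with proton dose and 5.44% with gamma dose, and 0.16% and 2.21% downward. For so few genes, the absence of calls lies near these shares. Only 1 of 6 lymphocyte, 5 of 8 neuron and glia and 3 of 6 skeletal muscle markers passed the filter on low values. Neuron and glia markers, of interest for Ano3, summed to 64 to 483 counts with the median of Nefl and Snap25 at 0, and their rank correlation with dose was −0.699 in the proton series and 0.249 in the gamma series. Their part in the Ano3 values was not tested. The sum of the 5 fibroblast markers was lower at 150 and 200 cGy, 22559 to 34334 counts, than at 0 to 10 cGy, 37664 to 61784. The share of all tested genes with such a gap was not counted, and the libraries at 150 and 200 cGy are those of different GC content. Acap2 was highest in the same mice at 150 and 200 cGy. Col1a2 and Col1a1 had the highest median counts in the fibroblast sum, with proton and gamma slopes of −0.25 and −0.36 and of −0.39 and −0.53. Those of Dcn were 0.07 and −0.04 and those of Pdgfra −0.02 and −0.11. The part of these markers in the Acap2 values was not tested.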

How the data were processed

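Read counts per gene were used as deposited: the authors aligned paired-end stranded 100-base reads to mm9 with STAR 2.5.2a (CASAVA 1.8.1 is also named in the submitters' notes), resampled libraries to one depth with PORT and counted sense-strand reads. Genes averaging 5 counts or more per mouse were fitted with edgeR 4.0.16 (quasi-likelihood, robust, TMM, R 4.3.3), with an intercept and dose slope per radiation type. Levels at matched doses were tested with dose as a factor, and by an exact test over within-dose swaps of log2(count + 1), computed with scipy 1.17.1. P-values were adjusted by Benjamini-Hochberg over 13124 genes, with a threshold of 0.1. They measure spread between single mice. Counting intervals are exact at 95% and cover counting error only. Ratio tests on 2 libraries compare those libraries, not conditions. Gene models were GENCODE M1 on the same build, and all 21078 identifiers matched. RefSeq, on another build, gave names only. Named genes were the 4 genes, for each the 5 with the highest correlation and the nearest 2 tested genes on each side, the 2 highest and 2 lowest slope sums of each list, Mdm2 and Cdkn1a. The genes and lists were chosen with earlier results of these data known. Alternatives were other normalization, DESeq2 1.42.0, filters, dose scales, dose ranges, a GC and length correction, a surrogate variable (sva 3.50.0), a brown fat score and leaving out mice. The scripts were tested on simulated data.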

Additional observations from a re-analysis of the deposited data

Results flagged for a closer look

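The count of 4921517L17Rik in the proton mouse at 200 cGy, 27, was far from the other 9 proton mice, the highest of which had 17. The gap was 0.5 of the whole range of the 10 mice, above the limit of 0.466 for 10 values. The proton mouse at 200 cGy was also far from the rest for Acap2, with 632 counts and a gap of 0.522 of the range. These 10 mice had different doses and are not replicates, and 12 such groups were examined. Among replicates chance would give a gap of this size in about 1 in 20. That rate does not hold here, because genes picked for a rise with dose favour a high value at 200 cGy.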

How the results depend on the processing

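Changes are log2 over 0 to 200 cGy. With log2(dose + 1), the Ano3 change was 5.74 (proton) and 4.62 (gamma), and Acap2 gamma was 0.24. Over 0 to 125 cGy, Ano3 proton was 4.98, 9030617O03Rik 2.99 and 3.49, 4921517L17Rik gamma −0.91, Acap2 proton 0.43 and Acap2 gamma −0.10, the last with its direction turned. With the GC correction, Acap2 was 0.47 and 0.15. Leaving out mice in turn gave 3.72 to 5.37 for Ano3 proton, 3.45 to 4.19 for Ano3 gamma, 2.13 to 2.80 for 9030617O03Rik proton, 2.15 to 3.02 for gamma, 1.09 to 1.69 for 4921517L17Rik proton, −0.66 to −0.29 for gamma, 0.53 to 0.76 for Acap2 proton and 0.20 to 0.57 for Acap2 gamma, where the lowest Acap2 and the highest Ano3 proton values are without the mouse at 200 cGy. The mean count filter of 50 left out Ano3 and 4921517L17Rik.

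Level differences, none past the threshold, turned sign for 4921517L17Rik with the brown fat score (0.073), and for Acap2 over 0 to 125 cGy (−0.018) and with the GC correction (−0.0033). Leaving out pairs, the ranges were −0.016 to 0.19 for Ano3, 0.11 to 0.24 for 9030617O03Rik, −0.30 to −0.019 for 4921517L17Rik and −0.026 to 0.046 for Acap2, and in the exact test −0.034 to 0.11 for Ano3, 0.13 to 0.26 for 9030617O03Rik, −0.26 to −0.017 for 4921517L17Rik and −0.015 to 0.059 for Acap2. The adjusted p over all alternatives, edgeR and DESeq2, ran from 0.834 to 0.996, 0.311 to 0.951, 0.696 to 0.996 and 0.882 to 1.0 in the order Ano3, 9030617O03Rik, 4921517L17Rik and Acap2.

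Genes called upward with proton dose (210) numbered 131 with genes of 1 count or more, 40 with dose ranks, 22 with log2(dose + 1), 13 over 0 to 125 cGy, 78 with the GC correction, 557 with a surrogate variable and 346 with the brown fat score. With gamma dose (714) they numbered 463, 335, 38, 29, 206, 1249 and 1082 in that order. Without single mice or pairs they ran from 27 (pair at 200 cGy) to 548 (pair at 125 cGy) and from 54 (gamma mouse at 200 cGy) to 941. Genes called for a level difference (0) numbered 70 with DESeq2, 3 with genes of 1 count or more, 1 with the GC correction, 79 with a surrogate variable, 2 with the brown fat score, and 0 to 20 without pairs, the latter without the pair at 75 cGy. Genes called downward (21 with proton and 290 with gamma dose) ran from 0 (log2(dose + 1)) to 175 (brown fat score) and from 5 (0 to 125 cGy) to 642 (without the proton mouse at 75 cGy) over all alternatives. The cause was not tested. The level test was paired by dose, the only thing that mice of the 2 series share. Without that replicate block, with dose as a straight line, the differences were 0.10, 0.16, −0.13 and 0.0029 in the gene order above, and 2 genes were called.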
